A study of Mus musculus with 3 samples.

Results

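The genes described here are 10 mouse germline genes, Dazl, Ddx4, Stra8, Sycp1, Sycp3, Mael, Tdrd1, Stk31, Slc25a31 and Tex101, in embryonic stem (ES) cells with and without Pcgf1. They were chosen by name, with earlier results of these data known. The genes are known to be repressed in ES cells by variant forms of Polycomb repressive complex 1 (PRC1). Not all of them were silent here, as their values below show. All were found under these names in the deposited lists. They are 10 of the 25346 genes that were listed apart from their neighbours in every sample. The study holds 3 RNA-seq libraries, 1 each of wild-type C57BL/6 ES cells (WT), of ES cells without Pcgf1 (Pcgf1KO) and of Pcgf1KO cells given Pcgf1 with a Flag tag by lentivirus (labelled Pcgf1KO+ Pcgf1_flag, called the rescue library here). The Pcgf1KO line was made by Cas9 cutting in a pair of neighbouring Pcgf1 exons, with puromycin selection and growth of single colonies. The number of colonies behind the sequenced line was not stated. The rescue cells were selected with puromycin as well. All 3 cultures were grown with serum and leukaemia inhibitory factor on mouse embryonic fibroblasts inactivated with mitomycin-C. No group had a replicate, so no difference below has a replicate check, no p-value can be given, and the order of the libraries cannot be set against any spread.

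Germline genes are used by germ cells on the way to eggs and sperm and are silenced in nearly all other cells. In ES cells this silencing is known to involve DNA methylation of CpG-rich promoters and a variant PRC1 named PRC1.6, which holds PCGF6, L3MBTL2, the DNA-binding pair MGA and MAX, and E2F6 with its DP1 partner. MGA and MAX recognise the E-box CACGTG, and E2F6 recognises a G- and C-rich motif. PCGF1 belongs to another variant complex, PRC1.1, which KDM2B brings to CpG islands, and both complexes share the RING1B enzyme that places ubiquitin on histone H2A.

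The promoter windows of the members show how often these letters occur in them. RefSeq windows (GRCm38.p6, 250 bases before to 50 bases after each start) were found for 10 of 10 members, 13 windows in all because Tdrd1 and Stk31 have several starts. The E-box CACGTG, which reads the same on both strands, was found for 7 of 10 members, Ddx4, Sycp1, Sycp3, Mael, Tdrd1, Stk31 and Slc25a31. It was found for 8.09% of the 27018 genes with a window and for 12.2% of the 7490 such genes that reached 1 FPKM in a library. Among 60 other germline genes with a window, from the lists below, the share was 25%. Of the genes at 1 FPKM, 511 with a window were more than 2-fold higher in the rescue library than in Pcgf1KO, and 12.3% of these held it. The letters GCGGGA, part of the E2F motif, were found on either strand for 5 members (Ddx4, Sycp1, Sycp3, Mael and Slc25a31), against 22.1% of all genes with a window and 42.2% of those at 1 FPKM. None of these matches overlapped an E-box, and all 5 of these members also hold an E-box. Dazl, Stra8 and Tex101 held neither motif. The Stra8 window is not at the first exon in the lists, which starts 785 bases upstream of the RefSeq start.

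The stretches around the E-boxes are printed because the E-box is the motif shared by most members, with the E-box in capitals, 12 bases on each side where the window allows, and 5′ to 3′ on the strand of the gene.
Mael, minus strand, chr1:166238950-166238979: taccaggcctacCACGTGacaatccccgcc
Slc25a31, plus strand, chr3:40708766-40708795: cgcaactggaaaCACGTGttatggtcacat
Sycp1, minus strand, chr3:102936177-102936206: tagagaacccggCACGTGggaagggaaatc
Stk31, plus strand, chr6:49395472-49395501: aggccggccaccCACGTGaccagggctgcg
Sycp3 upstream E-box, plus strand, chr10:88459511-88459540: gccgttggctccCACGTGagaacgggcatg
Sycp3 downstream E-box, plus strand, chr10:88459532-88459561: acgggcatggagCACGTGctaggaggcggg
Ddx4, minus strand, chr13:112652322-112652351: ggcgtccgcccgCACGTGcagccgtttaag
Tdrd1, plus strand, chr19:56826186-56826208: tggggctgcgcgCACGTGggagt

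The E-box started 223 bases before the RefSeq start in Mael, 94 in Sycp1, 93 in Slc25a31, 64 and 43 in Sycp3, 29 in Ddx4, and, for the start nearest to it, 55 in Stk31 and 11 in Tdrd1. In Ddx4 it lay inside the first exon as listed in 2 of the 3 libraries, because the listed first exon began farther upstream there than in RefSeq. Mael and Dazl are also shown at greater length, since Mael had the highest level of any member in the rescue library and Dazl was the member that differed in Pcgf1KO. Each stretch lies upstream of every first exon listed for its gene with a value above 0, and the E-box and the reverse complement of GCGGGA are in capitals.
Mael, minus strand, chr1:166238745-166238994: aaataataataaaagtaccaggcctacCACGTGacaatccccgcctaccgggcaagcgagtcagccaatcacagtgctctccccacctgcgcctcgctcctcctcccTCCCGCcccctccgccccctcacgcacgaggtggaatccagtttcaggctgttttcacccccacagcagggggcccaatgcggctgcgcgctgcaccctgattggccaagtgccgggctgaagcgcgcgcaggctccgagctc
Dazl, minus strand, chr17:50293647-50293870: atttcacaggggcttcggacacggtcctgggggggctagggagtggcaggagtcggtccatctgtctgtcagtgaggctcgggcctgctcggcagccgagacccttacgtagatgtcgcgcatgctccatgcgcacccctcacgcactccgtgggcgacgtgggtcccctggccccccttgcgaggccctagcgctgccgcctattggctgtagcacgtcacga

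The windows of the members were rich in CpG. Their median was 22 CpG per window with an observed-to-expected ratio of 0.780, against 7 CpG and 0.384 over all 32841 windows and 21 CpG and 0.757 over windows of genes that reached 1 FPKM. The Ddx4 window held the most, 38 CpG at a GC content of 72%. The fewest were in the Tdrd1 window at the start farthest downstream, with 3, and in the Stra8 window, with 10.

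**Figure D1:**
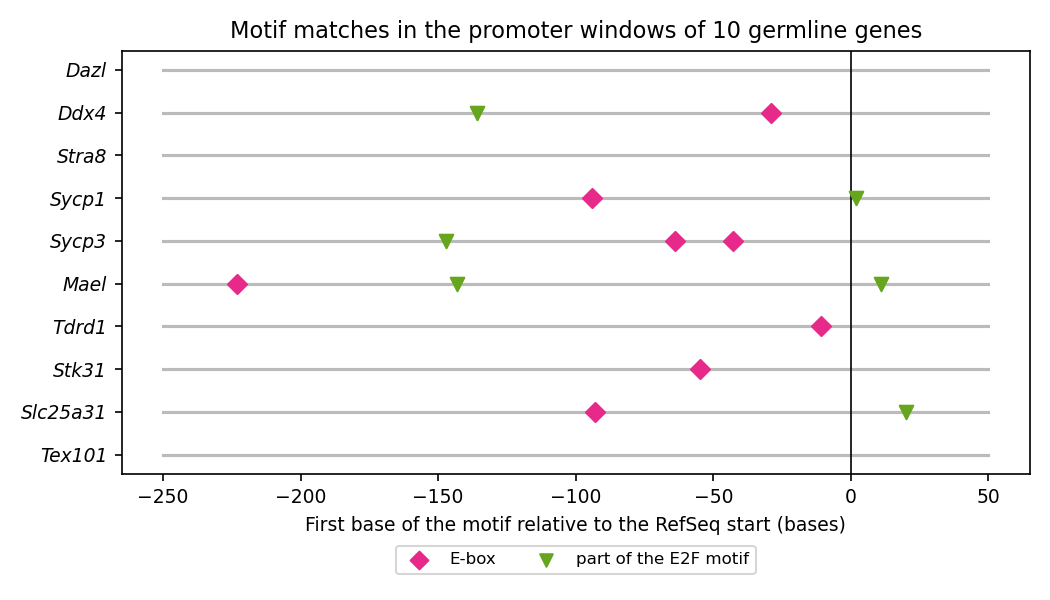
Each grey line is the RefSeq promoter window of a member, from 250 bases before to 50 bases after the start (x axis, bases), with diamonds at E-boxes and triangles at the E2F motif part on either strand. For Stk31 and Tdrd1 the distance is to the start nearest to the motif; an E-box was found for 7 of 10 genes, and Dazl, Stra8 and Tex101 hold neither motif.

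The value of a gene is given in FPKM, fragments scaled to the length of the transcript and the size of the library, as the larger of its summed first-exon and summed last-exon values. Folds are ratios after 0.1 FPKM was added to both values, which understates the change of low genes, and a gene is called higher or lower beyond 2-fold. Targeted first, Pcgf1 stood at 13.95 FPKM in WT, 5.88 in Pcgf1KO and 7.86 in the rescue library. The Pcgf1KO list gives its whole value to transcripts without the exons between 83078895 and 83079268 of chromosome 6 (mm10), the pair cut by the guides. The rescue library lists no such transcript, although its cells were made from the knockout line, and its value cannot be divided between the lentivirus and the gene. Results that rest on the rescue library are therefore results of the library with that label, and without it only the comparison of Pcgf1KO with WT remains.

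The germline genes were not jointly higher in the Pcgf1KO library than in the WT library. In Pcgf1KO, 1 of 10 members, Dazl, was more than 2-fold higher than in WT, and none was more than 2-fold lower. Over all 25346 genes 2.16% were higher and 4.98% were lower in this comparison, and 3.01% of the genes that reached 1 FPKM were higher. The median log2 ratio of the members was -0.16, and it was -0.09 over the 9739 genes that reached 1 FPKM in a library. Of the members, 7 stood below their WT value and 3 above it, a split that became 5 and 5 with median-of-ratios scaling, where Mael (log2 ratio 0.08) and Sycp1 (0.04) changed sign, and their summed level was 23.3 FPKM in WT and 21.8 in Pcgf1KO.

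With the larger of the first-exon and last-exon values, all 10 members were more than 2-fold higher in the rescue library than in Pcgf1KO. This held for 6.35% of all genes and 7.43% of the genes that reached 1 FPKM, while 2.22% of all genes were lower. On first-exon values alone the count of members was 9, with Stra8 reversed to a log2 ratio of -0.71. On last-exon values alone it was also 9, with Sycp3 at 0.73, within 2-fold. The 9 include Ddx4, whose last-exon sum in the rescue library takes in an exon outside the annotated gene. With 1 FPKM added to both values of each ratio the count of members was 8. The median log2 ratio of the members was 1.90, with a range from 1.16 (Sycp3) to 3.08 (Slc25a31). The median of genes at 1 FPKM was -0.01. Against WT, 8 of 10 were more than 2-fold higher in the rescue library, against 3.99% of all genes and 3.87% of those at 1 FPKM (2.36% of all genes were lower), with a median log2 ratio of 1.86. Both comparisons use the rescue library and are not independent of each other, and the members were chosen with earlier results of these data known. The summed level of the members was 88.6 FPKM there. In WT 5 members and in Pcgf1KO 6 members were below 1 FPKM, and none was in the rescue library. In a bulk library, a few cells with high levels and many cells with low levels of these RNAs cannot be told apart.

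**Figure D2:**
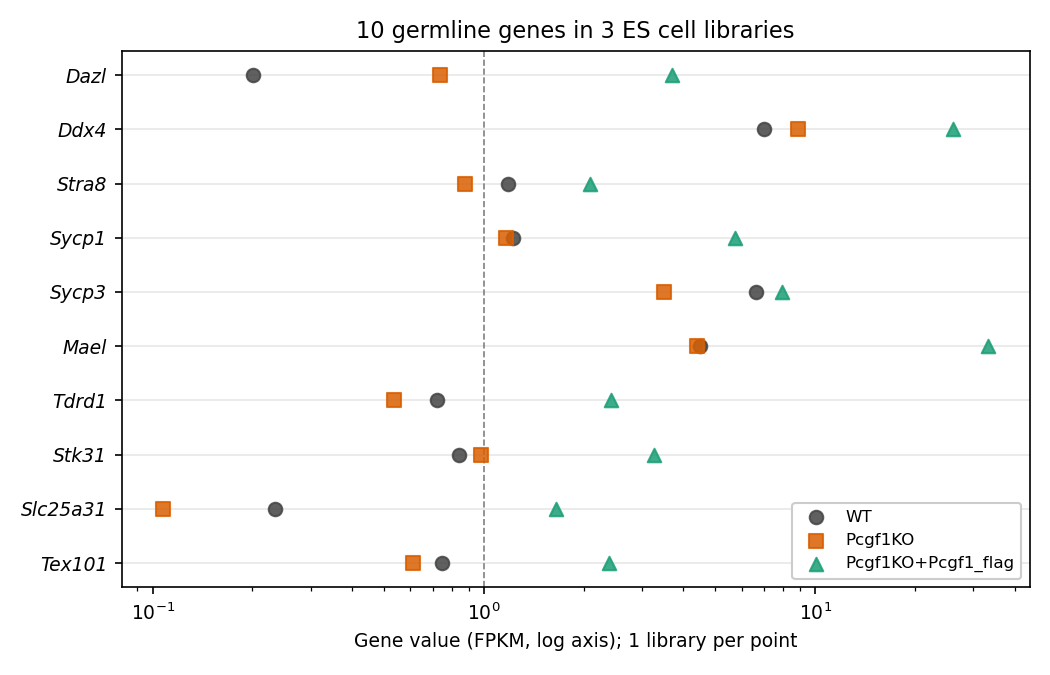
FPKM of each member (log axis) in WT (circles), Pcgf1KO (squares) and the library labelled Pcgf1KO+ Pcgf1_flag (triangles), with 1 library per point and the dashed line at 1 FPKM. The triangle is the rightmost point for all 10 genes, and the square lies well to the right of the circle for Dazl (0.737 against 0.201 FPKM) and to its left for Slc25a31 (0.107 against 0.234 FPKM).

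**Figure D3:**
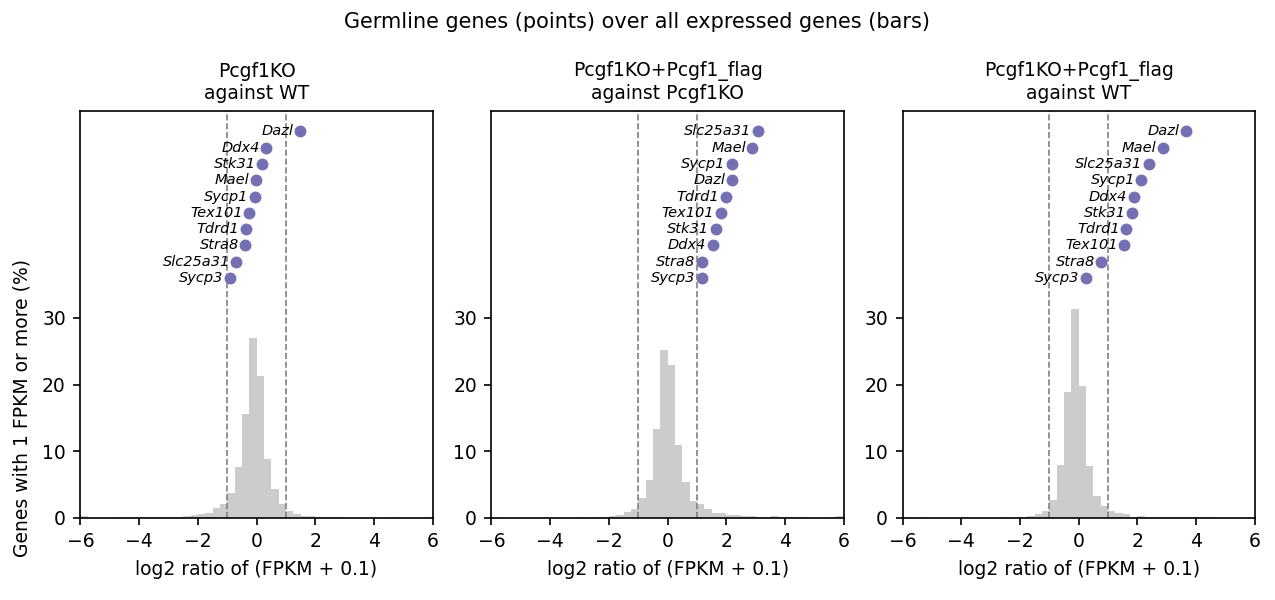
Members (points, named, spread vertically only for legibility) over the distribution of all 9739 genes with at least 1 FPKM in a library (bars, % of genes) for the 3 comparisons, as log2 ratios of FPKM plus 0.1, with dashed lines at 2-fold. The members lie around 0 in the first panel with Dazl to the right at 1.48, and all 10 lie beyond the right dashed line in the second.

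Dazl and Ddx4 encode RNA regulators of germ cells, and all gene positions are those of GENCODE vM21 on mm10. Dazl (ENSMUSG00000010592, chromosome 17, 50279395 to 50293636, minus strand), an RNA-binding protein that controls translation in germ cells, was at 0.201 FPKM in WT, 0.737 in Pcgf1KO and 3.70 in the rescue library. It was the only member more than 2-fold higher both from WT to Pcgf1KO (2.78-fold) and from there to the rescue library (4.54-fold), and it was 12.6-fold higher in the rescue library than in WT. With 1 FPKM added in place of 0.1, the log2 ratio of rescue library to WT fell from 3.66 to 1.97, below that of Mael (2.64). Only 0.955% of all genes had a larger ratio of Pcgf1KO to WT. The WT value corresponds to about 11.6 fragments and the Pcgf1KO value to about 46.1, as estimated from the smallest steps of the FPKM values. With 1 FPKM added, the log2 ratio of Pcgf1KO to WT fell from 1.48 to 0.53, within 2-fold.

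Ddx4 (ENSMUSG00000021758, chromosome 13, 112598333 to 112652475, minus strand), also called Vasa, an RNA helicase of germ granules and a widely used germ cell marker, stood at 7.01 FPKM in WT, 8.88 in Pcgf1KO and 26.1 in the rescue library. It was the most abundant member in WT and in Pcgf1KO. The Pcgf1KO value was 1.26-fold that of WT, and the rescue value was 2.92-fold that of Pcgf1KO and 3.69-fold that of WT.

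Stra8 (ENSMUSG00000029848, chromosome 6, 34920163 to 34939344, plus strand) encodes a factor induced by retinoic acid at the entry into meiosis. Its value was 1.18 FPKM in WT, 0.876 in Pcgf1KO and 2.09 in the rescue library, so that the rescue value was 2.24-fold that of Pcgf1KO and 1.71-fold that of WT. This order depended on the exons used. Its first-exon values were 0 in WT, 0.876 in Pcgf1KO and 0.496 in the rescue library, and on these alone the log2 ratio of rescue library to Pcgf1KO was -0.71, reversed from 1.16. The last-exon values gave the values above. A 198-base internal exon was included at 0.904 FPKM in WT, 0.876 in Pcgf1KO and 1.59 in the rescue library. It was skipped at 0.274, 0 and 0.496 FPKM in the same order. The first-exon values thus left out listed transcripts in WT and in the rescue library, and their order is not that of the whole gene. The direction for Stra8 still has no replicate check.

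Sycp1 and Sycp3 encode proteins of the synaptonemal complex, which joins homologous chromosomes in meiosis, SYCP1 as the transverse filament and SYCP3 as part of the axis. Sycp1 (ENSMUSG00000027855, chromosome 3, 102818499 to 102936100, minus strand) stood at 1.23 FPKM in WT, 1.17 in Pcgf1KO and 5.72 in the rescue library, where it was 4.59-fold higher than in Pcgf1KO and 4.39-fold higher than in WT. Sycp3 (ENSMUSG00000020059, chromosome 10, 88459569 to 88473236, plus strand) stood at 6.64 FPKM in WT, 3.50 in Pcgf1KO and 7.93 in the rescue library. Its ratio of Pcgf1KO to WT was 0.534-fold (log2 -0.91), which became a log2 ratio of -0.22 on last-exon values alone, and it had the smallest difference between rescue library and WT (1.19-fold). Its 2.23-fold difference between rescue library and Pcgf1KO became a log2 ratio of 0.73 on last-exon values alone, within 2-fold. Sycp3 is also the only member with an exon that overlaps another gene, Chpt1 on the opposite strand, and strand was not stated for these libraries. Chpt1 was at 3.15 FPKM in WT, 5.85 in Pcgf1KO and 3.34 in the rescue library.

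Mael, Tdrd1 and Stk31 belong to the germ granules and the piRNA pathway, in which small RNAs guide the silencing of transposons. Mael (ENSMUSG00000040629, chromosome 1, 166201201 to 166238747, minus strand), needed for piRNA-guided silencing, was at 4.49 FPKM in WT, 4.41 in Pcgf1KO and 33.4 in the rescue library. WT and Pcgf1KO differed by a ratio of 0.981, and the rescue library was 7.42-fold above Pcgf1KO, which only 0.698% of all genes exceeded. Tdrd1 (ENSMUSG00000025081, chromosome 19, 56826209 to 56870012, plus strand), a Tudor-domain scaffold that binds PIWI proteins, was at 0.720 FPKM in WT, 0.5365 in Pcgf1KO and 2.42 in the rescue library, where it was 3.96-fold above Pcgf1KO. Stk31 (ENSMUSG00000023403, chromosome 6, 49395604 to 49469501, plus strand), a Tudor-domain protein with a kinase-like region, stood at 0.8414 FPKM in WT, 0.9779 in Pcgf1KO and 3.255 in the rescue library, where it was 3.11-fold above Pcgf1KO. For each of these genes WT and Pcgf1KO lay within 2-fold, and the rescue library was more than 2-fold above both. For Stk31 the first-exon values alone were 0.560 FPKM in WT and 0.978 in Pcgf1KO. Their log2 ratio was 0.71, in place of 0.20.

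Slc25a31 and Tex101 act in male germ cells. Slc25a31 (ENSMUSG00000069041, chromosome 3, 40708855 to 40726096, plus strand), the testis form of the mitochondrial ADP/ATP carrier, was the lowest member in Pcgf1KO at 0.107 FPKM, with 0.234 in WT and 1.65 in the rescue library. Its 8.45-fold difference between rescue library and Pcgf1KO (log2 3.08) fell to a log2 ratio of 1.26 with 1 FPKM added, and rests on about 4.8 fragments in Pcgf1KO and 70.5 in the rescue library. With a pseudocount of 0.01 FPKM its log2 ratio of Pcgf1KO to WT moved from -0.69 to -1.06, beyond 2-fold. Tex101 (ENSMUSG00000062773, chromosome 7, 24668007 to 24676675, minus strand), a surface glycoprotein of germ cells, was at 0.748 FPKM in WT, 0.609 in Pcgf1KO and 2.38 in the rescue library, where it was 3.50-fold above Pcgf1KO and 2.93-fold above WT. Across the 10 members the estimated fragments ran from 9.64 to 408.5 in WT, from 4.8 to 562.1 in Pcgf1KO and from 58.3 to 1579 in the rescue library.

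A further 80 germline genes in 4 lists were examined to see how far the members stood with the rest of their pathways, and 74 of them were measured. These lists too were chosen with earlier results of these data known. In the rescue library 36 of 74 were more than 2-fold higher than in Pcgf1KO, against 6.35% of all genes, and 1 was lower, Msh4, at most 0.121 FPKM in any library and named after its value was seen. Of the 36, 16 were below 1 FPKM in every library and 6 were listed at 0 in Pcgf1KO. Between Pcgf1KO and WT 5 were higher, against 2.16% of all genes, and 12 were lower, against 4.98%. Of the 74, 10 were at 0 in every library and could not be called. Among the 34 that reached 1 FPKM, 20 were higher in the rescue library than in Pcgf1KO, against 7.43% of genes at 1 FPKM. The median log2 ratio of the 74 was -0.20 for Pcgf1KO against WT and 0.86 for rescue library against Pcgf1KO. Over all genes it was 0 in both, but many of those genes were at 0 in every library, so that median is no yardstick. The higher level in the rescue library therefore did not extend to every germline gene.

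Of 16 other piRNA pathway genes measured, 8 were higher in the rescue library than in Pcgf1KO and none was lower. Piwil2, a PIWI protein that carries piRNAs, was at 6.16 FPKM in WT, 4.52 in Pcgf1KO and 25.2 in the rescue library. Fkbp6, a co-chaperone of the pathway, was at 0.0425, 0.102 and 3.53 FPKM in the same order, and Mov10l1, the helicase that processes piRNA precursors, at 0.370, 0.266 and 2.86. Gpat2, an acyltransferase of mitochondria needed for piRNA production, was at 0.220, 0.171 and 1.88 FPKM. Between Pcgf1KO and WT, 1 gene of this list was higher (Asz1) and 2 were lower (Piwil1 and Piwil4), all below 1 FPKM in every library and named after their values were seen.

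Of 30 other meiosis genes measured, 15 were higher in the rescue library than in Pcgf1KO and 1 was lower. Those that followed the naming rule differed in their WT level. Dmc1, the meiotic recombinase, was at 8.66 FPKM in WT, 2.06 in Pcgf1KO and 5.88 in the rescue library, so that the rescue library stood below WT. Stag3, a meiotic cohesin subunit, was at 1.48, 0.678 and 2.09 FPKM, and Tex11, which helps crossovers form, at 0.822, 0.233 and 4.43. Syce1, of the central element of the synaptonemal complex, was at 1.62 FPKM in WT, 2.16 in Pcgf1KO and 13.5 in the rescue library. Meioc, which keeps germ cells in meiotic prophase, was at 2.66, 2.01 and 5.45 FPKM (listed as Gm1564).

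Among 17 other germ cell regulators, 10 were higher in the rescue library than in Pcgf1KO and none was lower. Tfap2c, a transcription factor of primordial germ cells, was higher in Pcgf1KO, at 19.4 FPKM against 9.10 in WT, and stood at 16.6 in the rescue library. Dppa3, a maternal factor that is also present in ES cells, was at 38.3 FPKM in WT, 17.5 in Pcgf1KO and 60.1 in the rescue library. Brdt, a testis bromodomain protein, was at 0.358, 0.109 and 1.09 FPKM, Tex14, of germ cell bridges, at 1.73, 0.860 and 2.34, and Taf7l, a germ cell transcription factor subunit, at 0.657, 0.329 and 4.57. Of 11 genes of gametes and late germ cells, 3 were higher in the rescue library than in Pcgf1KO. The sperm lactate dehydrogenase Ldhc was at 0.259 FPKM in WT, 0.218 in Pcgf1KO and 2.17 in the rescue library. The 5 genes of this list that were listed at 0 in every library were Prm1, Prm2, Tnp1, Tnp2 and Odf1, genes of late spermatids, named here after their values were seen.

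**Figure D4:**
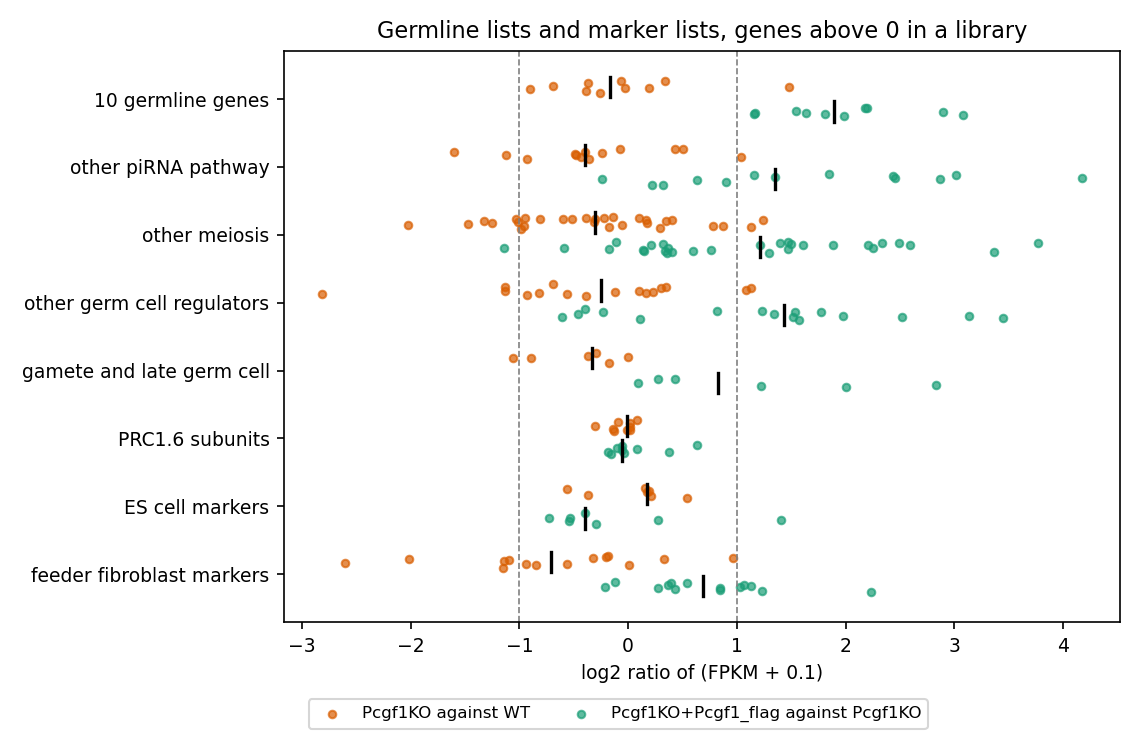
Log2 ratios (x axis) of Pcgf1KO against WT (orange) and of rescue library against Pcgf1KO (green) for the members and for other lists, with 1 point per gene above 0 in a library, the median of the plotted genes as a black bar and dashed lines at 2-fold. Green points of the germline lists reach to the right of the dashed line, while PRC1.6 subunits stay between the lines in both comparisons.

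The RNA of complexes known to act on germline promoters was examined next. Of 10 PRC1.6 subunits 9 were measured, and none differed by more than 2-fold in any comparison. Their log2 ratios lay between -0.31 and 0.08 for Pcgf1KO against WT and between -0.18 and 0.64 for rescue library against Pcgf1KO, with E2f6 highest in the second. Among 7 measured PRC1.1 and shared PRC1 subunits, Rybp, a subunit that raises the activity of variant PRC1, was lower in the rescue library, at 12.6 FPKM, than in Pcgf1KO, at 40.3, and in WT, at 30.3. Bcor, the corepressor that defines PRC1.1, went the other way, at 4.06 FPKM in WT, 5.33 in Pcgf1KO and 9.49 in the rescue library, 2.30-fold above WT, and is named after its values were seen. Of 7 measured genes for DNA and H3K9 methylation, Tet2, an enzyme that oxidises methylated cytosine, was at 2.33 FPKM in WT, 1.67 in Pcgf1KO and 6.76 in the rescue library, and the others were within 2-fold. The part of Rybp, Bcor and Tet2 in the members' values was not tested.

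Markers of the cell types in these cultures were set beside the members. Of 7 measured ES cell markers, Nanog, a pluripotency factor, was more than 2-fold higher in the rescue library (123.0 FPKM) than in Pcgf1KO (46.3), with 68.2 in WT, and the others were within 2-fold in every comparison. The summed level of 16 measured feeder fibroblast markers was 68.0 FPKM in WT, 47.9 in Pcgf1KO and 58.7 in the rescue library. Of these 16, 5 were lower in Pcgf1KO than in WT, against 4.98% of all genes. In the rescue library 5 were higher than in Pcgf1KO, against 6.35%. The latter included Col1a1 at 1.88, 0.390 and 2.21 FPKM, Thy1 at 14.2, 6.39 and 13.5, Col6a1 at 1.02, 0.404 and 1.08 and Fbn1 at 0.551, 0.473 and 1.16. The list was not uniform. Vim, the largest part of each sum, was at 39.9, 31.9 and 29.3 FPKM. Dcn (0.352, 0.779 and 1.18) and Loxl1 (1.41, 1.80 and 2.46) rose in that order. Vim, Dcn and Loxl1 are named after their values were seen. Postn and Fap, both fibroblast markers, were listed at 0 in every library. Of 9 measured primitive endoderm markers the summed level was 34.9, 40.6 and 25.6 FPKM, with Col4a1 at 9.74, 24.0 and 7.14. Lama1, the other large part of this sum, was instead lowest in Pcgf1KO, at 22.9, 13.8 and 15.4 FPKM. Sox7 was highest in the rescue library, at 0.144, 0.414 and 0.648. Lama1 and Sox7 are named after their values were seen. All 8 measured markers of the two-cell-like state, a rare ES cell state with genes of the early embryo, were listed at 0 in WT and Pcgf1KO, and 6 of them were above 0 in the rescue library, from 0.0588 to 0.521 FPKM. Several of these are members of gene families with near-identical copies. None of the 8 reached 1 FPKM, and 4 were more than 2-fold higher in the rescue library than in Pcgf1KO, against 6.35% of all genes. The rescue library also had the most genes above 0 of any kind, 13255, against 12907 in WT and 12469 in Pcgf1KO. How many other genes were above 0 in the rescue library only was not computed. The part of feeder cells and of the two-cell-like state in the members' values was not tested.

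The lists also give the transcript forms of the members, in mm10 coordinates and with GENCODE vM21 as annotation. In Ddx4 a last exon of 21 bases (chromosome 13, 112595137 to 112595157), 3176 bases outside the annotated gene, was listed in the rescue library only, with 8.96 FPKM or 34.3% of the gene's value. The annotated last exon alone held 17.2 FPKM there and 8.88 in Pcgf1KO, within 2-fold, so the last-exon call of Ddx4 depends on the outer exon. An internal exon of Ddx4 had forms of 78 and 93 bases, and the shorter form took 80.3% of the value in WT, 68.9% in Pcgf1KO and 83.9% in the rescue library. In Stk31 a first exon of 22 bases (chromosome 6, 49395556 to 49395577), 27 bases upstream of the GENCODE gene, was listed in the rescue library only and held 54.4% of the gene's value there. RefSeq has a Stk31 start at 49395539, 17 bases upstream of this exon. The exon lies within the span from the printed Stk31 E-box to the first exon annotated in GENCODE.

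The listed first exon of Tdrd1 differed between libraries. All of its value in WT was on the exon from 56826209 to 56826264 of chromosome 19, all of it in Pcgf1KO on the exon from 56826275 to 56826303, and in the rescue library the exons held 78.4% and 21.6%. The printed Tdrd1 E-box begins 11 bases before the start of the first and 77 bases before that of the second. At these levels (0.720 and 0.5365 FPKM) the assignment rests on about 72.3 fragments over the whole gene in WT and 58.5 in Pcgf1KO for exons of 56 and 29 bases.

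Among exons that can be skipped, a 51-base exon of Dazl was skipped in 41.5% of its value in Pcgf1KO and 34.5% in the rescue library, and the event was not listed in WT. A 165-base exon of Sycp1 was skipped in 80.0% of the value in WT, all of it in Pcgf1KO and 57.3% in the rescue library. A 42-base exon of Mael was skipped in 17.4% of the value in WT and in none in the other libraries, where included forms had 4.41 and 33.4 FPKM. A 123-base exon of Stk31 was skipped in 38.4%, 42.6% and 44.5% in the same order. The lengths of these 4 exons are multiples of 3, so skipping any of them keeps the reading frame if they are coding. These shares come from the authors' assembled transcripts, with no reads to check them.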

How the data were processed

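Poly-A RNA of 3 mouse ES cell cultures was sequenced as paired-end reads, and strand was not stated. The methods name alignment to mm10 with TopHat, and the submitters' processing notes name TopHat2 2.0.12, Cufflinks 2.2.1 and HTSeq 0.6.0. The authors deposited for each library a list of first exons, last exons and splicing events, each with an FPKM value, and the program behind the lists is not given in the sources used here. No counts were among the files, so depth is known only through an estimate. The worth of 1 fragment was estimated from the lowest step of FPKM times length in genes with 1 transcript over 2000 bases (0.0517 in WT, 0.0476 in Pcgf1KO and 0.0498 in the rescue library). The worth of 1 fragment falls as depth rises, and by these values the libraries were close in depth. The estimates have no interval and depend on the transcript length assumed.

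First-exon and last-exon values were summed per gene and the larger sum was used; both were equal in every library for 7 of 10 members. Of 26366 single names, 1020 that shared a joined locus or were missing in a library were left out, since a merged gene otherwise reads as 0. No member was among them. Ratios used a pseudocount of 0.1 FPKM and calls a 2-fold limit, with no test. On simulated data the calls recovered the planted changes, which the design made near certain. The planted changes were larger than the 2-fold limit, with little noise, in genes above the level of most members in WT and Pcgf1KO. The simulation therefore says nothing about calls in low genes. The members and lists were chosen with earlier results of these data known. Named genes outside the members passed 2-fold in Pcgf1KO against WT or in rescue library against Pcgf1KO and 1 FPKM in a library, at most 5 per list by the size of the first ratio. Promoter sequences are from RefSeq. Software was Python 3.11.15, numpy 2.4.6, pandas 2.3.3 and matplotlib 3.10.9.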

Additional observations from a re-analysis of the deposited data

How the results depend on the processing

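No paired analysis was possible because each group had 1 library, and for the same reason no replicate could be left out. In all, 7 alternatives were computed, 1 of them (genes of joined loci kept) chosen after seeing the data. Genes beyond 2-fold numbered 1810 for Pcgf1KO against WT, 2173 for rescue library against Pcgf1KO and 1608 for rescue library against WT. These counts became 943, 1073 and 641 for genes of at least 1 FPKM, where fewer genes were tested, 3267, 3656 and 3002 with a pseudocount of 0.01 FPKM, and 454, 585 and 329 with a pseudocount of 1 FPKM. Members beyond 2-fold in Pcgf1KO against WT, 1 in the report, numbered 2 on first-exon values only (Dazl and Stra8), 2 with a pseudocount of 0.01 (Dazl and Slc25a31) and 0 with a pseudocount of 1; other germline genes beyond 2-fold in the same comparison, 17 in the report, numbered 6 at 1 FPKM, 29 with a pseudocount of 0.01 and 3 with a pseudocount of 1. Other germline genes higher in the rescue library than in Pcgf1KO, 36 in the report, numbered 20 at 1 FPKM and 16 with a pseudocount of 1. A larger pseudocount shrinks the ratios of low genes by construction. Members beyond 2-fold in rescue library against Pcgf1KO stayed between 8 and 10 under the 7 alternatives, and members higher in rescue library against WT between 6 and 9. Of 70 recomputed member ratios per comparison, 3, 4 and 3 crossed the 2-fold limit, in the order of comparisons above. Many of these ratios could not move. All 10 members reached 1 FPKM and none lay in a joined locus, so those alternatives returned the same values. First-exon and last-exon sums were equal for 7 of 10 members, so using either alone left these in place. Unchanged member counts under such alternatives are no check. Signs changed on first-exon values only for Stra8, to -0.71 for rescue library against Pcgf1KO and to 3.29 for Pcgf1KO against WT, and with median-of-ratios scaling for Mael (-0.03 to 0.08) and Sycp1 (-0.07 to 0.04) in Pcgf1KO against WT; the cause was not tested. Median-of-ratios scaling moved no member across the limit. With no replicates, the spread between cultures, and the effect of picking knockout colonies, cannot be told apart from Pcgf1 loss or re-expression. Depth is known only by estimate.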
